A study of Mus musculus with 18 samples.

Results

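Pou5f1, Sox2 and Klf4 are the 3 genes whose coding sequences were carried into mouse fibroblasts by the retroviruses pMX-Oct4, pMX-Sox2 and pMX-Klf4. They were found by their symbols in the platform annotation, which gave each of them 1 probe set, so 3 probe sets stand for 3 of the 19937 genes measured by name. The probe sets are 10444853 for Pou5f1 on chromosome 17, 10491477 for Sox2 on chromosome 3 and 10513008 for Klf4 on chromosome 4. Their levels were followed in 6 groups of 3 arrays each. EOS3F-24 is an iPS (induced pluripotent stem) line labelled partially reprogrammed, and the same line was also profiled after conversion with a MEK inhibitor at 2 μM and a GSK inhibitor at 12 μM (2i) in LIF-supplemented ES medium. EOS3F-28 and EOS3F-29 are iPS lines labelled fully reprogrammed, J1 is an embryonic stem (ES) cell line with no vectors named for it, and the source cells were CD1 mouse embryonic fibroblasts (MEFs). The 3 iPS lines were kept in 1 μg/mL puromycin, and the iPS and J1 cells grew with LIF on arrested feeder cells, as the MEFs did not. Each reprogramming outcome rests on 1 or 2 lines, so a line and its outcome cannot be told apart. In each contrast with MEFs, feeder culture and LIF cannot be told apart from the cell type either. Puromycin is named for the iPS lines only, so it cannot be told apart from iPS origin in contrasts with J1 cells or MEFs.

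Oct4 (the product of Pou5f1) and Sox2 are DNA-binding proteins that bind side by side at joined octamer and SOX elements, among them elements of their own genes and of Nanog, and hold ES cells pluripotent. Klf4 is a zinc-finger protein that binds GC-rich and CACCC elements; it works in the same network downstream of LIF signalling and is also active in fibroblasts and in stratified epithelia. In reprogramming the retroviral copies start the process, the endogenous genes are switched on later, and silencing of the vectors is a known mark of complete reprogramming. The array may read the viral transcript together with the endogenous one, and the share of each cannot be told apart in these values. In bulk RNA, fewer cells with a transcript and less transcript per cell cannot be told apart either.

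The endogenous genes are read from their own promoters, whereas the pMX copies are read from the viral long terminal repeat, so the promoters are shown for what the endogenous loci carry. RefSeq sequences of the 250 bases before the annotated start were found for all 3 genes (build GRCm38.p6), Pou5f1 with 2 starts, of which the first is shown. Capitals mark matches on either strand to ATGCAAA (the first letters of the octamer), CATTGT (a SOX core), CACCC (a KLF element), GGGCGG (a GC box), AGGTCA (a nuclear receptor element) or TATAAA. The Pou5f1 window is chr17:35505782-35506031 on the plus strand, that of Sox2 is chr3:34649745-34649994 on the plus strand, and that of Klf4 is chr4:55532476-55532725 on the minus strand.
Pou5f1: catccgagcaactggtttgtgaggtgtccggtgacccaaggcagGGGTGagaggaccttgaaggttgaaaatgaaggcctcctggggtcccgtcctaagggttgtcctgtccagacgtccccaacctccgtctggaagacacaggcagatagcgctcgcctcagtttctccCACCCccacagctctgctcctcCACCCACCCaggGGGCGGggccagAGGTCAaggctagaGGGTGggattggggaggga
Sox2: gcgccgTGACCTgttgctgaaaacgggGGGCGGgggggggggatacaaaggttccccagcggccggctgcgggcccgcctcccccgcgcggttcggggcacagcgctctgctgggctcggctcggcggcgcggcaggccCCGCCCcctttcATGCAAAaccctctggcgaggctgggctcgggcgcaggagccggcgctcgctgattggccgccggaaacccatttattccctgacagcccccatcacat
Klf4: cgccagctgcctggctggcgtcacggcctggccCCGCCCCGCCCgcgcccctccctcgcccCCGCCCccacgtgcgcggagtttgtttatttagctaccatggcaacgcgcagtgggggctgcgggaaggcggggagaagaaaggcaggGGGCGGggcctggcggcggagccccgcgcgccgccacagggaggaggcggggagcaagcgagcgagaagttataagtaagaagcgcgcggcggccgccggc
The Pou5f1 window held 5 matches to CACCC, 1 to GGGCGG and 1 to AGGTCA, the last 33 bases before the start. The Sox2 window held 1 match to ATGCAAA, 99 bases before the start, with 2 to GGGCGG and 1 to AGGTCA. In the Klf4 window the 4 matches were all to GGGCGG, of which 2 overlap, those that begin 217 and 212 bases before the start. Of 32851 mouse promoter windows of this length, 4.12% held ATGCAAA, 10.7% CATTGT, 52.0% CACCC, 32.7% GGGCGG, 14.0% AGGTCA and 12.4% TATAAA. Base composition was 62% GC for Pou5f1, 72% for Sox2 and 74% for Klf4, against a median of 52.4% over all windows. These matches are letters in a window and say nothing of binding.

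Values below are deposited log2 expression values, differences are log2 differences of group means with the SE, and a gene was called when limma's p, adjusted by Benjamini-Hochberg over all 19937 genes, was under 0.05. Replicate arrays correlated at 0.970 to 0.992 over genes and array medians lay between 4.22 and 4.43. The labels do not say whether replicates were separate cultures, so the tests weigh differences against array-to-array variation that could be purely technical. Fibroblast markers were checked because feeder cells were in the culture. In the contrasts with MEFs, 11 to 13 of 15 such markers were lower in each feeder-grown group, where 10% to 17.9% of all genes were called lower. Dcn, a matrix proteoglycan, was higher. That call was lost in partial cells without partial replicate 1 or MEF replicate 2, and in J1 cells without J1 replicate 1 or 3 or MEF replicate 1 or 2. None of the 15 markers was called among the feeder-grown groups in the main fit, which has no blocks. Other settings without blocks called a few, with array weights 3 higher and 1 lower in partial than in J1 cells. With replicate numbers as blocks 7 of 15 were lower in converted than in partial cells and 5 were higher in partial than in J1 cells. The same blocks gave 6 lower in converted than in full iPS cells and 4 higher in full iPS than in J1 cells. In these last contrasts, unlike those before them, equal replicate numbers did not pass the pairing check described with the processing. The array means of the 15 markers ran from 6.76 to 8.11 in partial, 6.34 to 7.57 in converted, 6.60 to 7.80 in EOS3F-28, 6.84 to 8.50 in EOS3F-29 and 6.44 to 7.53 in J1 cells, against 8.89 to 9.26 in MEFs, and no marker had a group mean under 4. Col1a1, a fibroblast collagen, was highest on the array numbered 1 of every feeder-grown group, at 8.81 to 10.15. The part of feeder RNA in the results that follow was not tested. All 11 genes of the naive pluripotency list were lower in partial than in full iPS and than in J1 cells. There 5.78% and 9.65% of all genes were called lower. Against MEFs all 11 were higher in converted, full iPS and J1 cells, beside 19.6%, 17.1% and 20.6% of all genes. The full lines were not at J1 levels, however: 7 of the 11 were lower in full iPS than in J1 cells and none higher (median -0.68, -0.02 over all genes, with 4.76% of genes called, 3.47% lower). Also, 7 were higher in converted than in full iPS cells (median 0.53), beside 3.96% of all genes. Without J1 replicate 3, 4 were lower in full iPS than in J1 cells, as with EOS3F-29 alone. Of the 7 higher in converted cells, 3 were left without converted replicate 2 or 3, against EOS3F-29 alone or with housekeeping centring. Of 7 primed epiblast markers measured, 3 were higher in full iPS than in J1 cells, beside 1.29% of all genes.

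Pou5f1 was the factor whose level set the partial line above every other group. Its values were 10.61, 11.02 and 11.24 in partial cells and 9.54, 9.68 and 9.70 after 2i. They were 9.93, 10.13 and 10.06 in EOS3F-28, 8.88, 9.19 and 9.36 in EOS3F-29, 9.70, 9.28 and 9.62 in J1 cells and 3.35, 3.17 and 2.98 in MEFs. Each of the 15 feeder-grown arrays stood far above the MEF arrays, and the 3 partial arrays were above all 12 others of the feeder-grown groups. Over the 6 group means Pou5f1 spanned 7.79, and 99.995% of genes spanned less.

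Sox2 divided the groups at another place, with the partial line near the fibroblasts. It was measured at 4.34, 4.71 and 5.08 in partial cells and at 8.82, 8.86 and 8.75 after 2i. The values were 7.81, 8.52 and 8.03 in EOS3F-28, 7.97, 8.56 and 8.34 in EOS3F-29, 8.62, 8.78 and 9.06 in J1 cells and 3.87, 3.91 and 3.49 in MEFs. The lowest partial array was above the highest MEF array, and the highest partial array was below the lowest of the other feeder-grown arrays by 2.73.

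Klf4 varied least. Its values were 7.12, 7.09 and 6.61 in partial cells and 6.69, 6.71 and 6.80 after 2i. They were 6.57, 6.73 and 6.97 in EOS3F-28, 6.73, 6.71 and 6.69 in EOS3F-29, 6.66, 6.70 and 6.91 in J1 cells and 5.84, 5.36 and 6.01 in MEFs. The MEF arrays were the lowest and all feeder-grown groups overlapped. The 5 feeder-grown means spanned 0.228, a spread smaller than that of most genes, as 30.0% of genes spanned less.

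**Figure D1:**
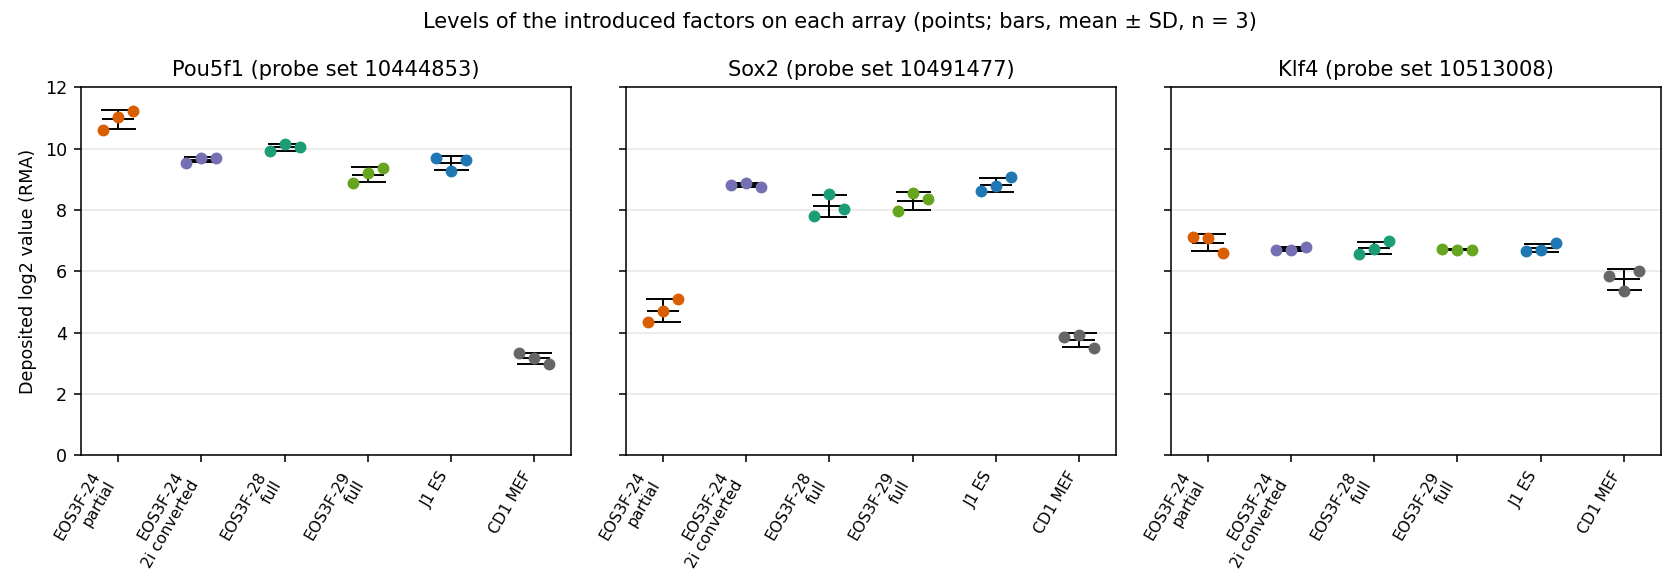
Deposited log2 value (vertical axis) of Pou5f1, Sox2 and Klf4 on each of 18 arrays by group (horizontal axis); points are arrays and bars are the mean ± SD (n = 3). The 3 partial arrays are the highest for Pou5f1 at 10.61 to 11.24, lie beside the MEF arrays for Sox2 at 4.34 to 5.08, and overlap the other feeder-grown arrays for Klf4.

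The source fibroblasts were the first comparison. In partial cells Pou5f1 averaged 10.96 ± 0.32 against 3.16 ± 0.18 in MEFs (SD, n = 3 each), a rise of 7.79 ± 0.16 (limma, adjusted p = 1.03e-15). The MEF values lie below the median of every array, where background compresses differences, so no fold is given. Klf4 rose by 1.20 ± 0.16 (limma, adjusted p = 2.36e-05), with means of 6.94 ± 0.29 in partial cells and 5.74 ± 0.34 in MEFs (SD, n = 3 each). Sox2 rose least, by 0.96 ± 0.20 (limma, adjusted p = 0.00184), with means of 4.71 ± 0.37 in partial cells and 3.76 ± 0.23 in MEFs (SD, n = 3 each). All 3 genes were thus called higher with no overlap of arrays, where 23.7% of all genes were called, 13.7% were called higher and 39.6% had groups that did not overlap.

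In the other feeder-grown groups Pou5f1 and Sox2 both stood several log2 units above MEFs. Pou5f1 was higher by 6.48 ± 0.16 in converted cells, 6.43 ± 0.14 in full iPS cells and 6.37 ± 0.16 in J1 cells. Sox2 was higher by 5.06 ± 0.20 in converted cells, 4.45 ± 0.18 in full iPS cells and 5.07 ± 0.20 in J1 cells. Klf4 was higher by 0.99 ± 0.16, 1.00 ± 0.14 and 1.02 ± 0.16 in the same order. These 9 differences were called (limma, adjusted p of at most 8.11e-05), as were 37.5% of all genes for converted (19.6% higher), 35.0% for full iPS (17.1% higher) and 38.0% for J1 cells (20.6% higher). Groups did not overlap for 48.3%, 28.8% and 46.7% of genes in these 3 contrasts. No vectors are named for J1 cells, and their Klf4 difference from MEFs was 0.18 smaller than that of the partial line, which is the partial minus J1 difference given further on. The 4 contrasts share the MEF arrays.

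The partial line was then set against the full iPS lines and J1 cells. Pou5f1 was higher in partial cells than in full iPS cells by 1.36 ± 0.14 (limma, adjusted p = 1.47e-06) and than in J1 cells by 1.43 ± 0.16, a 2.69-fold excess (limma, adjusted p = 3.78e-06). Sox2 was lower by 3.49 ± 0.18 than in full iPS cells (11.3-fold; limma, adjusted p = 2.00e-10) and by 4.11 ± 0.20 than in J1 cells (17.3-fold; limma, adjusted p = 1.28e-10). Partial Sox2, at 4.34 to 5.08, lay near the array medians of 4.22 to 4.43, where background compresses differences and limits these folds. For Klf4 no difference was called: it was 0.21 against full iPS cells, with a 95% interval of -0.08 to 0.50, and 0.18 against J1 cells, with an interval of -0.15 to 0.52. So 1 factor was higher, 1 was lower and 1 was not called, in contrasts where 18.6% of genes (12.8% higher, 5.78% lower) and 22.9% of genes (13.3% higher, 9.65% lower) were called, and groups did not overlap for 19.0% and 36.6%.

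Conversion in 2i moved Pou5f1 and Sox2 in opposite directions. Sox2 rose by 4.10 ± 0.20 in converted cells, 17.2-fold over partial cells (limma, adjusted p = 1.38e-10), with means of 8.81 ± 0.06 in converted and 4.71 ± 0.37 in partial cells (SD, n = 3 each). The partial mean lay near the array medians, so background limits this fold. Pou5f1 fell by 1.32 ± 0.16 in converted cells, 2.49-fold (limma, adjusted p = 9.49e-06), with means of 9.64 ± 0.09 in converted and 10.96 ± 0.32 in partial cells (SD, n = 3 each). The Klf4 difference was -0.21, with a 95% interval of -0.54 to 0.13 (limma, adjusted p = 0.428). Of all genes 22.4% were called, 9.36% higher and 13% lower, and for 37.8% the groups did not overlap.

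After conversion the 3 factors stood near J1 levels. Against J1 cells the differences in converted cells were 0.11 for Pou5f1 (95% interval -0.23 to 0.45), -0.01 for Sox2 (-0.43 to 0.42) and -0.03 for Klf4 (-0.36 to 0.31). None of the 3 was called, where 1.72% of genes were (1.06% higher, 0.652% lower), 342 genes, or 1087 with replicate numbers as blocks. The intervals still allow differences of up to 0.45 for Pou5f1, so equal levels were not shown. Against full iPS cells the differences were 0.05 for Pou5f1 (-0.24 to 0.34), 0.61 for Sox2 (0.24 to 0.98) and 0.00 for Klf4 (-0.29 to 0.29), with 5.16% of genes called (3.96% higher) and 8.27% without overlap.

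Sox2 lay close to the threshold in both contrasts that involve the full lines. All 3 converted arrays were above all 6 full iPS arrays, yet the adjusted p was 0.0530 (limma). Full iPS cells were in turn lower than J1 cells by 0.62 ± 0.18, with no overlap of arrays and an adjusted p of 0.0524 (limma). The Sox2 call changed with the setting: it was made for converted minus full cells without EOS3F-28 replicate 2 (adjusted p = 0.0192) or EOS3F-29 replicate 2 (0.0328), and for full minus J1 cells without the same arrays (0.0189 and 0.0310; limma). The 7 naive markers and the feeder markers given above differ in the same contrasts, and their part in the Sox2 values was not tested. Pou5f1 at 0.06 (95% interval -0.23 to 0.36) and Klf4 at -0.02 (-0.31 to 0.27) were not called between full iPS and J1 cells, where 4.76% of genes were (1.29% higher, 3.47% lower) and 7.40% had no overlap.

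**Figure D2:**
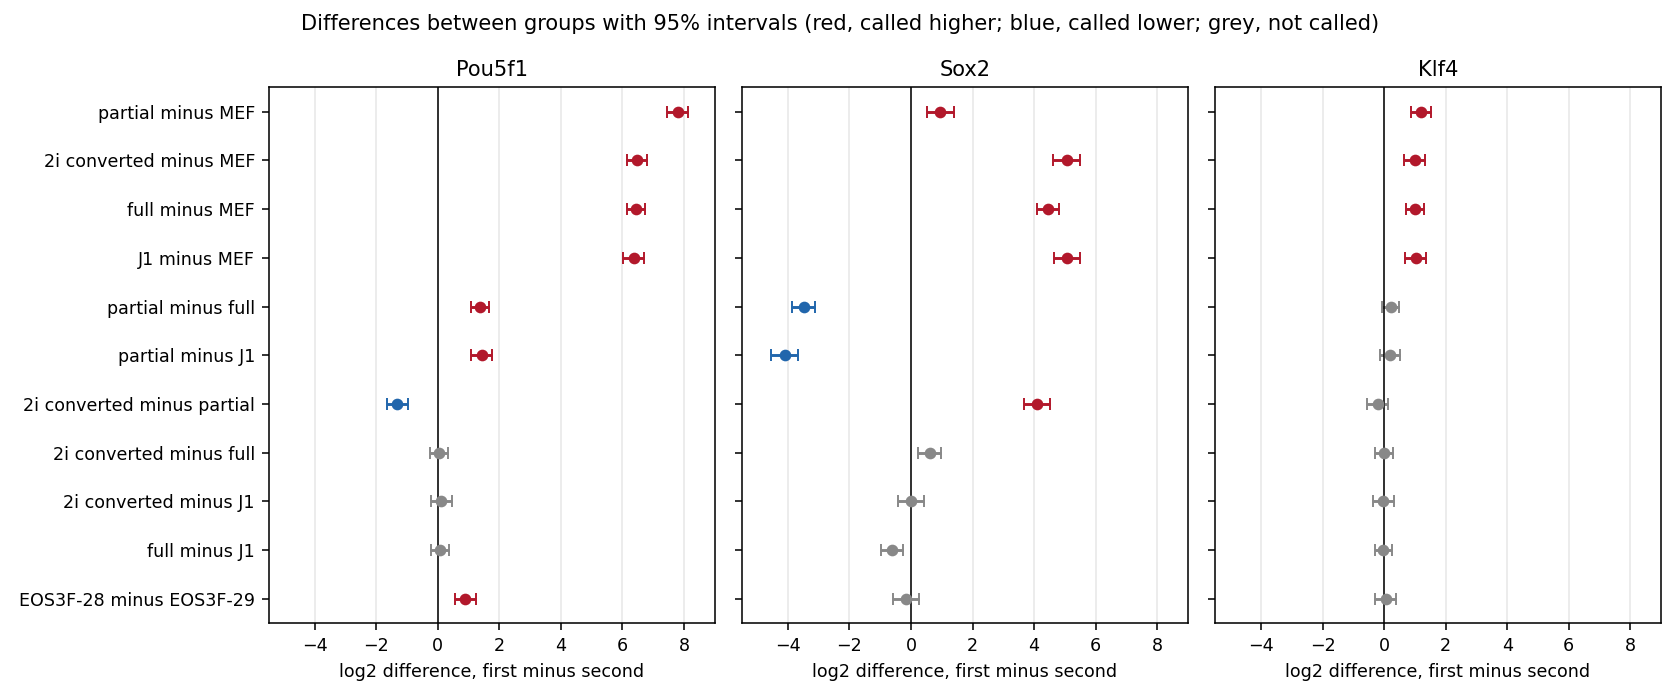
Log2 difference of group means (horizontal axis) with its 95% interval for 11 comparisons (vertical axis) and the 3 introduced factors. Points right of 0 are higher in the first-named group; Sox2 is 4.10 higher and Pou5f1 1.32 lower in converted than in partial cells, while the Klf4 intervals among feeder-grown groups all span 0.

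The 2 full lines differed in Pou5f1. EOS3F-28 was higher than EOS3F-29 by 0.90 ± 0.16, 1.86-fold (limma, adjusted p = 0.0124), and the lowest EOS3F-28 array was above the highest EOS3F-29 array by 0.57. Only 0.532% of genes were called between these lines, 106 genes, or 380 with replicate numbers as blocks, while for 15% of genes the lines did not overlap. The call was lost without EOS3F-28 replicate 2 (adjusted p = 0.0709) or replicate 3 (0.0655) and without EOS3F-29 replicate 1 (0.0537; limma). Sox2 at -0.17 (95% interval -0.59 to 0.26) and Klf4 at 0.05 (-0.29 to 0.38) were not called.

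Setting the group means in order shows which levels could be told apart. For Pou5f1 the order from high to low was partial, EOS3F-28, converted, J1, EOS3F-29 and MEF. Partial cells exceeded EOS3F-28 by 0.91 (limma, adjusted p = 0.000777), and EOS3F-29 exceeded MEFs by 5.98, while the 3 steps between were 0.40, 0.11 and 0.38 and were not called (limma, adjusted p = 0.176, 0.922 and 0.294), where 5.17%, 1.72% and 1.88% of genes were called. For Sox2 the order was J1, converted, EOS3F-29, EOS3F-28, partial and MEF, and the only neighbours told apart were EOS3F-28 over partial by 3.41 and partial over MEF by 0.96. For Klf4 no neighbours differed beyond their spread except the lowest feeder-grown group, EOS3F-29, over MEFs by 0.97 (limma, adjusted p = 0.00016).

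A near-identical copy could share Pou5f1 signal. The pseudogene Pou5f1-rs4 has a probe set of its own, 10495987, which read 3.24, 2.92 and 3.55 in partial cells, 3.31, 3.26 and 3.16 in converted cells and 2.84, 2.73 and 2.92 in MEFs. It stayed at or below 3.55 on these arrays and was called higher in partial cells than in MEFs, by 0.41 (limma, adjusted p = 0.0245), a call lost without partial replicate 1 (0.0546) or 3 (0.166) or MEF replicate 1 (0.0588) or 2 (0.0853). The level is far under that of Pou5f1 in partial cells, and whether it adds to the Pou5f1 probe set is uncertain.

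Genes that Oct4 and Sox2 are known to bind and activate were low in partial cells and high in the other feeder-grown groups. Of a list of 14 such genes 12 were measured. In partial cells 7 of the 12 were called higher than in MEFs, with a median difference of 0.74 (0.04 over all genes, 23.7% of them called), and all 12 were called higher in converted, full iPS and J1 cells, with medians of 3.53, 2.76 and 3.21 against 0.03 to 0.06 over all genes, of which 35.0% to 38.0% were called. All 12 were lower in partial than in full iPS cells (median -2.29) and than in J1 cells (median -2.71), and all 12 rose on conversion (median 2.60, 0.00 over all genes). The shares of all genes called the same way were 5.78%, 9.65% and 9.36%. The list was chosen with earlier results of these data known.

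Nanog, a homeodomain factor of the pluripotency core, was at 4.17, 5.14 and 4.39 in partial cells and 9.06, 8.97 and 9.48 in converted cells, a rise of 4.60 ± 0.23 (limma, adjusted p = 1.34e-10). Utf1, a chromatin-bound factor of ES cells, rose by 4.49 and Zfp42 (Rex1, a zinc-finger marker of ES cells) by 4.40. Lefty1, an inhibitor of Nodal signalling, rose by 3.61, and Dppa4 by 3.05. In partial cells Zfp42 was at -0.01 against MEFs (limma, adjusted p = 0.976), Lefty1 at 0.04, Nodal at 0.10 and Trim71 at 0.23, none of them called. Zscan10 was at 0.39 and was called only without partial replicate 2 among single arrays left out (limma, adjusted p = 0.0465).

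Tdgf1, a co-receptor for Nodal, stood apart. Its values were 6.51, 8.26 and 8.43 in partial cells against 3.38, 3.38 and 3.40 in MEFs, a rise of 4.35 ± 0.35 (limma, adjusted p = 9.52e-08). The first partial array was the lowest of its group, and all 3 were above the MEF arrays. It rose by a further 2.66 on conversion. Between converted and J1 cells none of the 12 was called, where 1.72% of all genes were. Between converted and full iPS cells 5 were higher, beside 3.96% of all genes, among them Fbxo15 at 1.14 and Zfp42 at 1.06. Of these 5 calls, 2 were left without converted replicate 2, converted replicate 3 or EOS3F-28 replicate 3, and 3 without replicate 1 of EOS3F-28 or of EOS3F-29 or after any of 3 other scalings (cyclic loess, quantile and housekeeping centring).

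**Figure D3:**
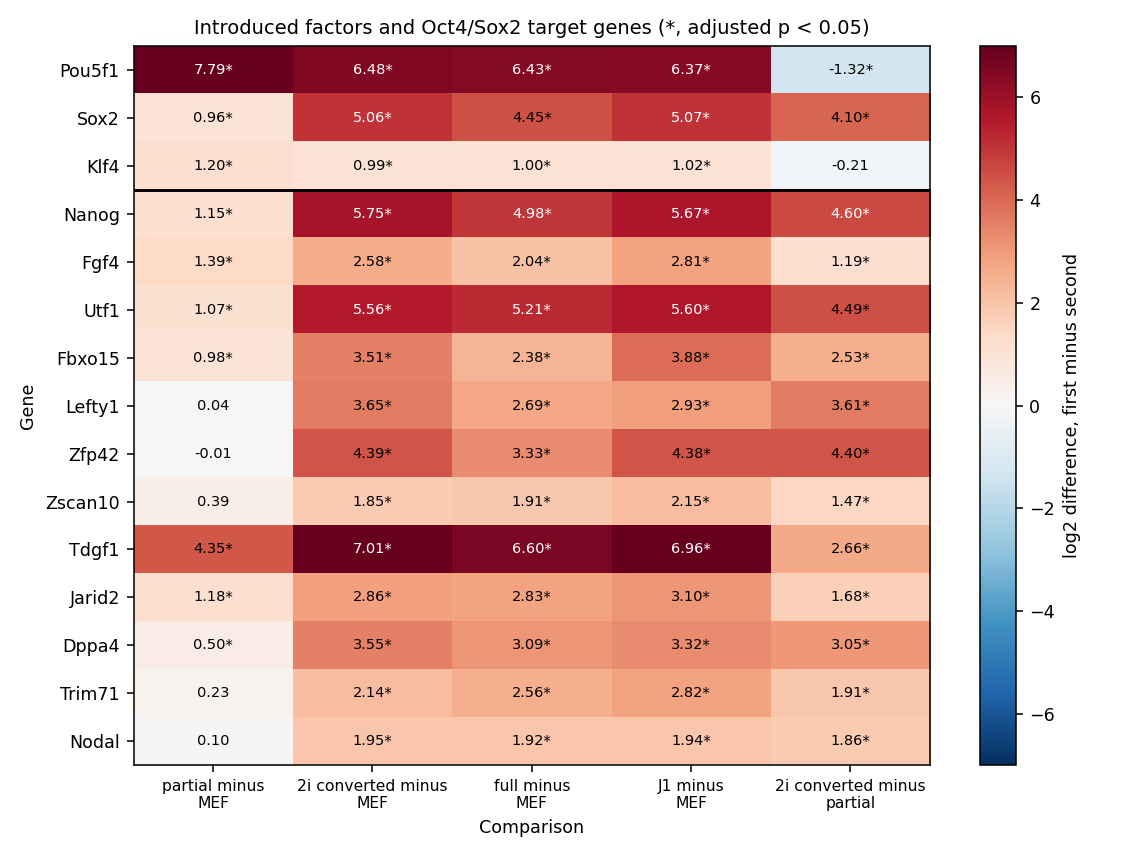
Log2 differences (colour and printed values) of the 3 introduced factors, above the line, and 12 Oct4 and Sox2 target genes, below it, in 5 comparisons (columns); asterisks mark adjusted p under 0.05. In partial minus MEF cells Pou5f1 is at 7.79 while 11 of the 12 target genes are at 1.39 (Fgf4) or less, and in converted minus partial cells all 12 are positive.

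Partners of the Oct4 protein were mostly lower in the partial line. Of 15 measured, 10 were lower in partial than in J1 cells (median -1.20, -0.03 over all genes), and 9 rose on conversion (median 0.96, 0.00 over all genes). Of all genes 22.9% were called against J1 cells (9.65% lower) and 22.4% on conversion (9.36% higher). Esrrb, an orphan nuclear receptor, was lower in partial than in J1 cells by 4.03, Tfcp2l1 by 3.42 and Nr0b1, a nuclear receptor that binds Oct4, by 2.48. All of these are also on the naive pluripotency list, so the counts of these lists are not independent. Against J1 cells and on conversion alike 1 gene, the NuRD subunit Mta1, was called the other way, by 0.35 above J1 cells. That call was lost without J1 replicate 1 (limma, adjusted p = 0.0616) or 2 (0.111), without partial replicate 2 (0.0595) or 3 (0.113), and with replicate numbers as blocks (0.0509), and on conversion it was lost without converted replicate 1 or 2 or partial replicate 3.

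The other members of the 3 protein families were compared with the introduced gene. In partial against full iPS cells 2 of 10 POU and 2 of 18 SOX genes were called, shares near or under the 18.6% of all genes, so they show nothing particular to these families. Of the 10 POU genes measured of 14 listed, none was called in partial cells against MEFs, and in partial against full iPS cells Pou6f1 was higher by 0.33 (not called without partial replicate 2, limma, adjusted p = 0.108) and Pou3f1, a POU factor of primed epiblast and glia, was lower by 0.50. Their array means ran from 3.84 to 3.99 in partial cells, near the bottom of the range. Of 18 SOX genes, Sox11, a factor of neural and mesenchymal progenitors, was higher by 0.63 and Sox15, a SOX protein that can pair with Oct4 in ES cells, was lower by 1.15 in partial than in full iPS cells. Sox15 was at 4.41, 4.26 and 4.56 in partial cells and 5.28, 6.05 and 6.02 in converted cells, a rise of 1.38, and the groups did not overlap.

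Among the KLF genes, several that act with Klf4 in ES cells were lower in the partial line, where no Klf4 difference was called. Of 16 genes measured, 2 were higher and 6 lower in partial than in full iPS cells (1 and 4 against EOS3F-28 alone, where Klf7 was not called), with a median of -0.11 against 0.01 over all genes, of which 18.6% were called. Klf2, which acts redundantly with Klf4 and Klf5 in ES cells, was at 5.36, 5.02 and 5.23 in partial cells against 7.52, 7.53 and 7.84 in J1 cells, a difference of -2.43 ± 0.16 (limma, adjusted p = 5.68e-09). Against full iPS cells Klf2 was lower by 1.57, Klf9 by 1.11 and Klf5 by 1.10 in partial cells, and Klf3 and Klf7 were higher by 1.07 and 0.87. On conversion 6 rose and 2 fell (6 and 5 with housekeeping centring), where 22.4% of all genes were called: Klf2 rose by 1.94, Klf5 by 1.63 and Klf9 by 1.55, while Klf7 fell by 1.43 and Klf3 by 1.00. In the same contrasts the differences of Klf4 were 0.21 against full iPS cells and -0.21 on conversion, neither called.

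**Figure D4:**
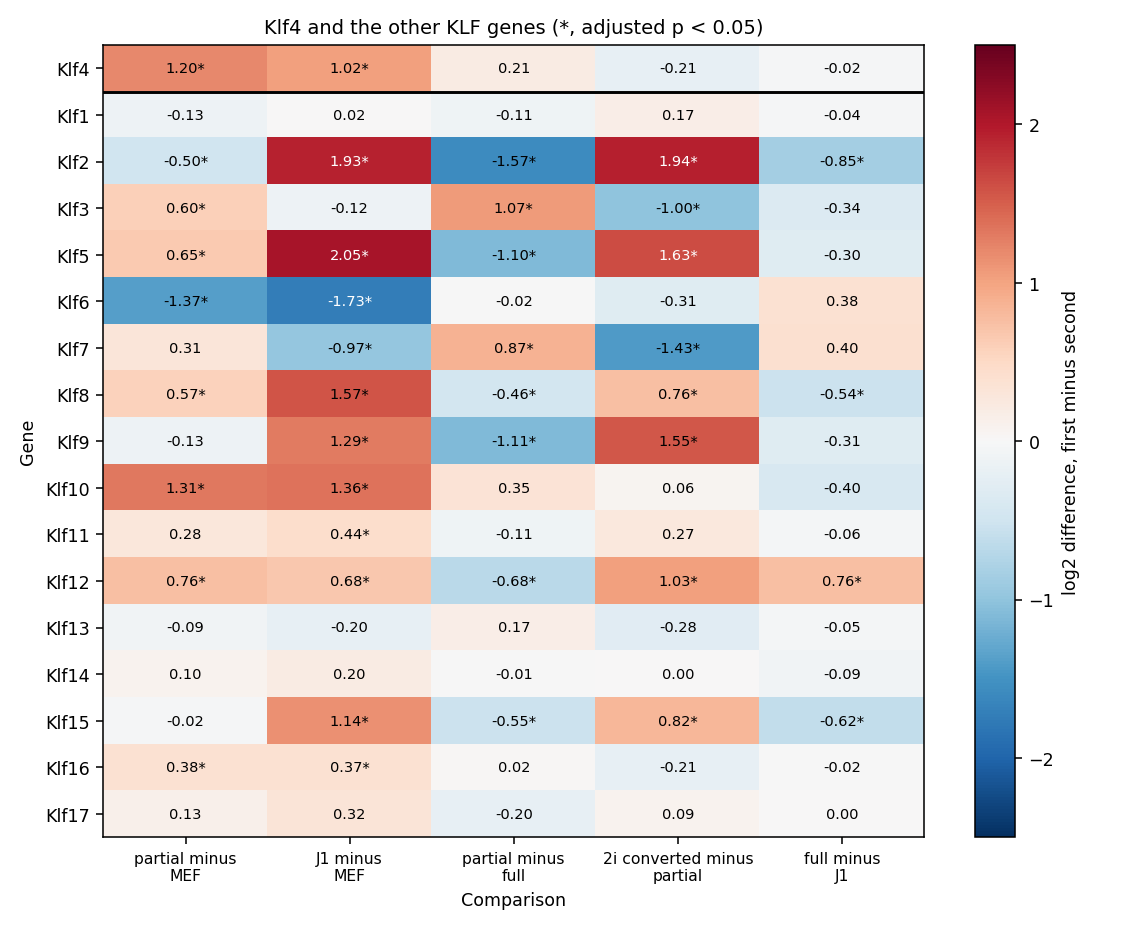
Log2 differences (colour and printed values) of Klf4, above the line, and 16 other KLF genes in 5 comparisons (columns); asterisks mark adjusted p under 0.05. Klf2, Klf5 and Klf9 are lower in partial than in full iPS cells and higher in converted than in partial cells, in both of which Klf4 is not called.

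Genes regulated by Klf4 in epithelia and the cell cycle were mixed. Of 11 measured of 12 listed, 5 were higher in partial cells than in MEFs and none lower (3 without partial replicate 3 or MEF replicate 1), 2 were higher and 3 lower in partial than in full iPS cells, and 3 rose and 2 fell on conversion. The medians were 0.64, -0.07 and -0.05 in these contrasts, against 0.04, 0.01 and 0.00 over all genes, of which 23.7%, 18.6% and 22.4% were called. Krt13, a keratin of stratified epithelium, was at 8.05, 8.82 and 9.53 in partial cells and 3.67, 3.66 and 3.59 in converted cells, against 3.73, 3.51 and 3.47 in MEFs. It was high in the partial arrays only among these 3 groups, and it fell by 5.16 on conversion. Cdh1 (E-cadherin), the adhesion protein of epithelia and ES cells, was higher in partial cells than in MEFs by 2.83. Its difference on conversion was 0.49 and was not called in the main fit. It was called with replicate numbers as blocks (limma, adjusted p = 0.00699), array weights (0.0108), cyclic loess (0.0459), only the compared groups (0.0307) or without converted replicate 1 (0.0318). Of 9 stratified epithelium markers 5 were higher in partial cells than in each of full iPS, J1 and MEF groups, where 12.8%, 13.3% and 13.7% of all genes were called higher. The array mean of the list was 5.83 to 6.21 in partial, 3.59 to 3.71 in converted, 3.69 to 3.79 in J1 and 3.45 to 4.64 in MEF arrays. The same list was higher in EOS3F-28, at 4.73 to 4.94, than in EOS3F-29, at 3.92 to 4.01. Beside 0.301% of all genes, 3 of 9 were called higher: Krtdap at 2.63, Krt13 at 1.36 and Ehf at 0.94. Without EOS3F-28 replicate 2 or 3 only Krtdap of these was called, and Ehf was not called without EOS3F-29 replicate 2 either (limma, adjusted p = 0.0651). The part of such cells in the Pou5f1 and Klf4 values was not tested.

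Regulators known to act on the endogenous genes were split in direction. Of 15 measured, 2 were higher and 1 lower in partial cells than in MEFs, 5 were higher and 8 lower in partial than in J1 cells, and 5 rose and 5 fell on conversion. Over all genes 23.7%, 22.9% and 22.4% were called in these contrasts, so the 3 calls against MEFs are near that background, while the medians of the list were 0.13, -0.45 and 0.23. Against J1 cells 3 were higher without J1 replicate 2 or without partial replicate 1 or 2, and on conversion 3 fell without partial replicate 2. Nr5a2, a nuclear receptor that activates Pou5f1, was lower in partial than in J1 cells by 1.87 and rose by 1.48 on conversion. Nr2f2, a nuclear receptor that represses Pou5f1, was higher in partial than in J1 cells by 1.23 and fell by 0.96 on conversion, a call lost without converted replicate 2 (limma, adjusted p = 0.0583). Otx2 (2.68), Tbx3 (1.25) and Prdm14 (1.21) rose on conversion as well. Cdx2, which opposes Pou5f1 in trophoblast, was higher in partial cells than in MEFs by 0.76.

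Genes of the machinery that silences retroviral vectors in pluripotent cells were described because the introduced copies are retroviral. Of 26 measured of 27 listed, 8 were higher in partial cells than in MEFs, against 17 in converted, 18 in full iPS and 17 in J1 cells, each of these 3 with 1 lower. Over all genes 23.7% were called for partial cells (13.7% higher), 37.5% for converted (19.6% higher), 35.0% for full iPS (17.1% higher) and 38.0% for J1 cells (20.6% higher). The 8 of 26 in partial cells exceeded the share called higher, but the count depended on single arrays. The medians of the list were 0.24, 0.63, 0.48 and 0.67 in the same order, against 0.03 to 0.06 over all genes. The count in partial cells was 3 without partial replicate 2, partial replicate 3 or MEF replicate 1, 4 without MEF replicate 3, and 5 after cyclic loess. In partial cells 8 were lower and 1 was higher than in full iPS cells, 10 were lower and 1 higher than in J1 cells, and 10 rose and 1 fell on conversion. Of all genes 18.6% (5.78% lower), 22.9% (9.65% lower) and 22.4% (9.36% higher) were called in these contrasts. After quantile normalization 13 were lower in partial than in full iPS cells.

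Dnmt3l, the cofactor of the de novo DNA methyltransferases, was at 3.64, 4.30 and 4.06 in partial cells and 8.42, 8.32 and 8.02 in converted cells, a rise of 4.25 ± 0.18 (limma, adjusted p = 3.29e-11). It was at 3.29, 3.73 and 3.13 in MEFs, and the partial arrays were far below the converted ones. The partial minus MEF difference of 0.61 was called (limma, adjusted p = 0.0207), a call lost without partial replicate 2 (0.124) or 3 (0.0711), without MEF replicate 1 (0.0748) or 3 (0.107) and after quantile normalization (0.0627). Dnmt3b, a de novo methyltransferase, was lower in partial than in full iPS cells by 2.83, Hells, a remodeller needed for DNA methylation, by 1.20, and Trim28, the co-repressor that recruits histone methylation to proviruses, by 1.07. Tasor, a core protein of the HUSH silencing complex, was lower by 1.16, while Pphln1, another HUSH subunit, was higher by 0.75. Setdb1 (-0.06), Dnmt1 (0.11) and the retrovirus-binding Zfp809 (-0.26) were not called in that contrast, and after quantile normalization Setdb1 and Zfp809 were called lower. These are levels of the genes, and silencing of the vectors itself was not measured.

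**Figure D5:**
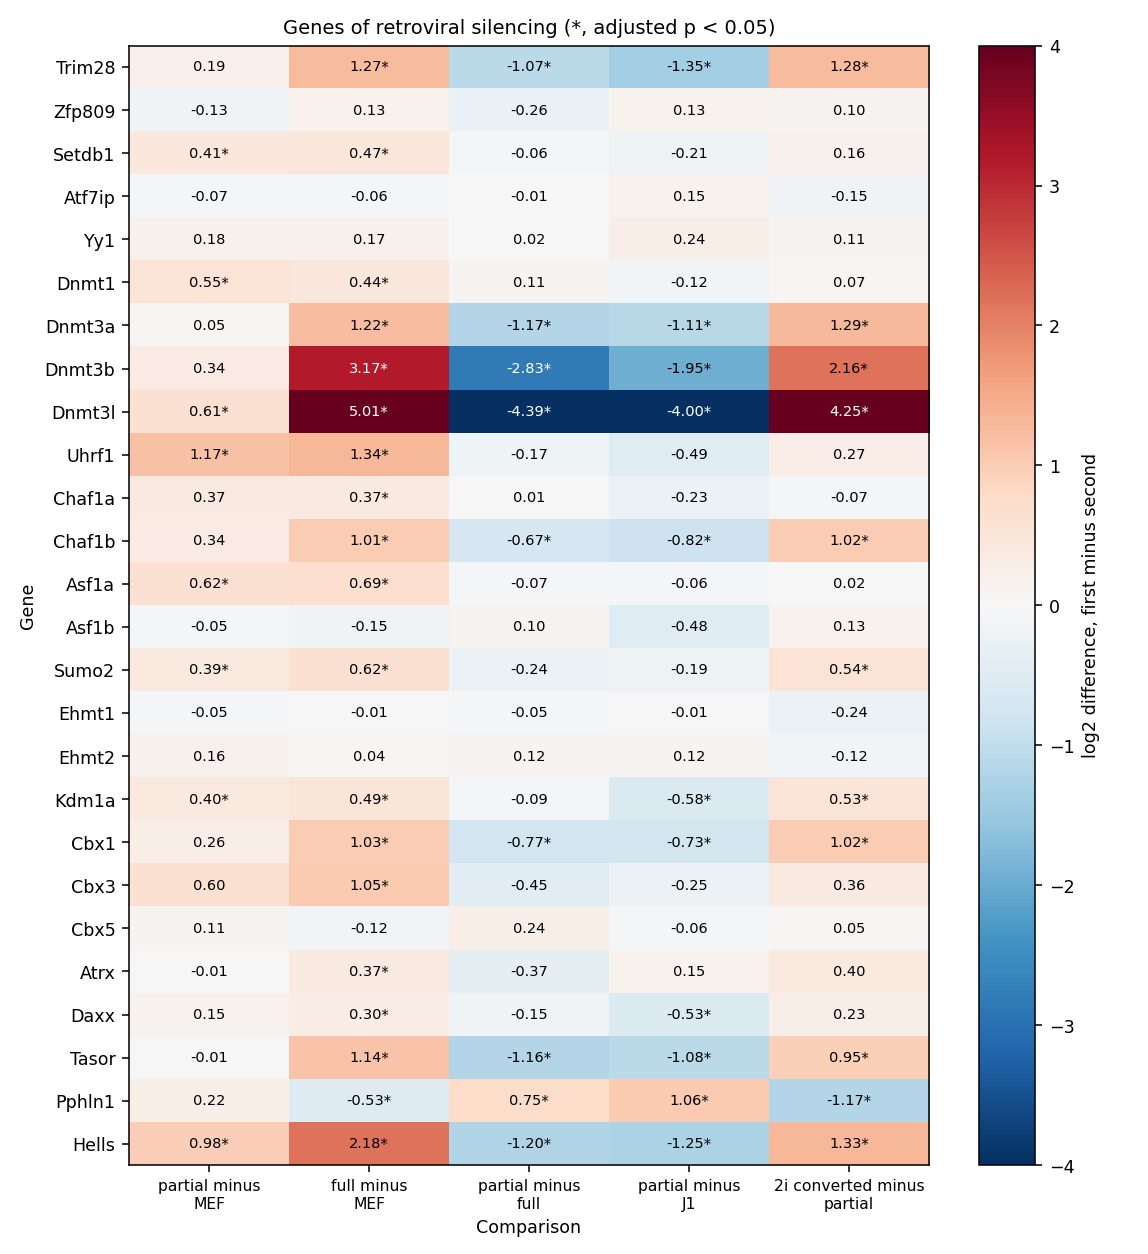
Log2 differences (colour and printed values) of 26 genes of retroviral silencing in 5 comparisons (columns); asterisks mark adjusted p under 0.05. Dnmt3l and Dnmt3b are 4.39 and 2.83 lower in partial than in full iPS cells, and Pphln1 is 0.75 higher.

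Of 12 reprogramming factors that were not introduced, 7 were higher and none lower in partial cells than in MEFs, 1 was higher and 7 were lower in partial than in full iPS cells, and 9 rose and 1 fell on conversion. The medians were 0.50, -0.87 and 1.37, against 0.04, 0.01 and 0.00 over all genes, of which 23.7%, 18.6% and 22.4% were called. Myc, left out of the vector set, was the 1 that was higher in partial cells: its values were 8.08, 8.78 and 8.74 in partial cells and 5.96, 4.17 and 4.59 in converted cells, against 6.78, 7.28 and 6.38 in MEFs. It was higher than in MEFs by 1.72 ± 0.41 (limma, adjusted p = 0.00434) and fell by 3.63 ± 0.41 on conversion (limma, adjusted p = 3.77e-06). Mycn, its relative in ES cells, went the other way and rose by 3.44. Lin28a, an RNA-binding protein that blocks let-7, rose by 2.43, and Lin28b had already risen by 1.32 in partial cells against MEFs.

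The genes most alike to each factor over the 18 arrays were sought by Pearson's r among 3462 genes whose group means spanned at least 1 log2 unit. These arrays fall into 6 groups and share them, so r describes the group pattern. For Pou5f1 they were Ccnb1ip1 (0.984), Ctnnal1 (0.983), Etv5 (0.981), L1td1 (0.966) and Smagp (0.965). For Sox2 they were Nanog (0.994), Mkrn1 (0.992), Utf1 (0.992), Dppa5a (0.989) and Dppa4 (0.989). For Klf4 they were Etv5 (0.905), Ctnnal1 (0.899), Tfap2c (0.893), Nup210 (0.886) and Ccnb1ip1 (0.885). Pou5f1 and Klf4 share 3 of these 5 genes, and their own r was 0.906, but it was 0.383 over the 15 arrays without MEFs, and Spearman's rho over 18 arrays was 0.542, with no shared gene among the 5 highest of each by rho. Pou5f1 with Sox2 was at 0.574 by r and 0.104 by rho. By rho over 18 arrays, none of the 5 genes closest to Sox2 or to Klf4 was among its 5 by r. Ctnnal1 and Ccnb1ip1 stayed among the 5 of Pou5f1.

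Without the MEF arrays the picture for Pou5f1 and Sox2 parted. Over the 15 feeder-grown arrays, with 1487 genes searched, r between them was -0.819. Sox2 kept Nanog (0.988), Utf1 (0.986), Mkrn1 (0.985) and Dppa4 (0.984) and gained Rbpms2 (0.986). Pou5f1 had Stmn2 (0.966), P2rx7 (0.937), Fabp5 (0.934), Mst1 (0.933) and Plek2 (0.932), none of which was among its 5 over 18 arrays. Klf4 had no close match, with Robo1 (0.630) the highest, followed by Cst9 (0.611), Tent5a (0.598), Kynu (0.598) and Ncam1 (0.597).

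Stmn2, a microtubule-binding stathmin of neurons, was picked for its likeness to Pou5f1 on these arrays, so its values are a description. It was at 9.55, 9.87 and 9.69 in partial cells and 8.11, 8.02 and 8.16 in converted cells. It was at 8.55, 8.50 and 8.39 in EOS3F-28 against 7.30, 7.61 and 7.37 in EOS3F-29, a difference of 1.06.

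The genes beside each factor on its chromosome were also described. In partial minus MEF cells, 2, 3 and 1 of 10 were called higher beside Pou5f1, Sox2 and Klf4, near the 13.7% of all genes called higher, so these counts show nothing particular to the neighbours. Of the 10 nearest measured protein-coding genes of Pou5f1, those 2 were H2-Q4, a class I histocompatibility gene, at 0.94 and Cchcr1 at 0.36 (limma, adjusted p = 0.0289). The Cchcr1 call was lost without any 1 of the 3 MEF arrays or partial replicate 2 or 3 (0.0521 to 0.129) and after cyclic loess, quantile normalization or housekeeping centring. On conversion 2 of the 10 fell, Tcf19 by 0.64 and Cchcr1 by 0.34. Conversion called 13% of all genes lower and 9.36% higher. The conversion counts beside each factor lay near those shares and show nothing particular to the neighbours. The Tcf19 call was lost without converted replicate 1 or 3 or partial replicate 1 or 2 (limma, adjusted p = 0.0570 to 0.0672), and that of Cchcr1 without any 1 of these 6 arrays (0.0567 to 0.159). Of the 10 beside Sox2, 3 were higher in partial cells than in MEFs, and on conversion 1 rose, the RNA-binding Fxr1 by 0.69 (not called without converted replicate 2 or partial replicate 1; limma, adjusted p = 0.0653 and 0.0809), and 1 fell, the mitochondrial dehydrogenase Acad9 by 0.49. Of the 10 beside Klf4, 1 was higher in partial cells than in MEFs: Ctnnal1, a relative of alpha-catenin, at 2.36, the fourth gene on 1 side and among the closest matches of Klf4 and Pou5f1 over the arrays. On conversion Zfp462, a zinc-finger gene, rose by 1.08, and 2 fell, Abitram by 0.87 and Ctnnal1 by 0.39, the Ctnnal1 call being made in 1 of 6 fits with an array left out, that without partial replicate 1 (limma, adjusted p = 0.00923). In partial minus MEF cells the median differences of the neighbours were 0.30, 0.19 and 0.03 for Pou5f1, Sox2 and Klf4, beside 7.79, 0.96 and 1.20 for the factors themselves.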

How the data were processed

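RNA of 18 mouse samples in 6 groups was hybridised to whole-transcript arrays after RNeasy extraction and biotin labelling, per the labels' protocols. The deposited log2 values per probe set were made by the authors with RMA, per the submitters' processing notes; its version and the build were not named there. RMA sets arrays to a like distribution and compresses differences near background.

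Of 34760 probe sets, the platform annotation gave 1 symbol to 21640, several to 1321 and none to 11799. Each of 19937 genes was represented by its probe set with the highest mean, a choice that bore on 954 genes and on none of Pou5f1, Sox2 and Klf4. The replicate groups came from the sample titles. Group means were estimated in a single limma model (version 3.58.1, R 4.3.3; lmFit, then eBayes) of the 18 arrays, full iPS cells being the mean of both lines, and tested on simulated data. Genes were called at a Benjamini-Hochberg adjusted p under 0.05 over all genes of each of 11 comparisons. The genes followed and the lists were chosen with earlier results of these data known. Lists share genes, so their counts are not independent. Of the naive pluripotency list, Nanog, Zfp42 and Fgf4 also count as targets and Esrrb, Tfcp2l1 and Nr0b1 as Oct4 partners. Klf2 and Klf5 also count as KLF genes, and Tbx3 and Prdm14 as regulators.

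Named were the 3 factors, at most the 3 largest called rises and falls per list and comparison (any member for targets, regulators, silencing genes and other reprogramming factors), the 5 most alike genes and 5 measured neighbours on each side, in RefSeq order. Pou5f1-rs4 was named outside this rule, as a copy. Stratified epithelium and feeder markers served as checks of other cell types.

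Equal replicate numbers were checked by correlating array deviations from group means. They were taken as pairs where all 3 exceeded 0.1: partial and J1 (0.208, 0.242, 0.223), converted and partial (0.383, 0.140, 0.122), converted and J1 (0.563, 0.454, 0.150), and EOS3F-28 and EOS3F-29 (0.542, 0.639, 0.149). Partial and EOS3F-29 (0.387, 0.296, 0.136) passed as well. This pairing comes from the values, not the labels. Replicate blocks entered only as an alternative and were fitted in every comparison, also where the rule was not met. Arrays numbered 3 failed it between converted cells and EOS3F-28 (-0.115) or EOS3F-29 (-0.0497). They also failed it between J1 cells and EOS3F-28 (-0.0901) or EOS3F-29 (-0.0852). Other alternatives were other normalizations, housekeeping centring, array weights, a filter on dim genes at log2 5, all probe sets, 1 full line, only the compared groups and arrays left out in turn.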

Additional observations from a re-analysis of the deposited data

Results flagged for a closer look

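Pou5f1 differed between the 2 lines labelled fully reprogrammed, which were derived with the same vectors and set against the same cells. The EOS3F-28 minus EOS3F-29 difference was 0.90, with 3 of 3 EOS3F-28 arrays above all EOS3F-29 arrays, where 15% of all genes had no overlap. The difference was tested directly, by limma with an adjusted p of 0.0124. The call was lost without EOS3F-28 replicate 2 (0.0709) or 3 (0.0655) or EOS3F-29 replicate 1 (0.0537).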

How the results depend on the processing

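No called difference of Pou5f1, Sox2 or Klf4 reversed under any alternative run, and outside the contrasts named here none changed its side of the threshold. Sox2 in converted minus full iPS cells, 0.61 and not called, was called at the same 0.61 after leaving out dim genes, with array weights and with the replicate block (limma, adjusted p = 0.0371, 0.0162 and 0.00295), and was 0.53 to 0.71 with single arrays left out, called at 0.67 and 0.71. In full minus J1 cells it was -0.62 and was called after leaving out dim genes, with the replicate block (0.0384 and 0.00266), with housekeeping centring at -0.63 (0.0449) and with array weights at -0.82 (0.000143), and was -0.72 to -0.50 with single arrays left out, called at -0.68 and -0.72. Pou5f1 in EOS3F-28 minus EOS3F-29 kept 0.90 but missed the threshold in a fit of only these groups (0.0648), which has fewer arrays, and was 0.76 to 1.00 with single arrays left out, not called at 0.76, 0.85 and 0.89. The replicate block changed no other call of the 3 factors. Equal replicate numbers had not passed the pairing check between full iPS and converted or J1 cells, which bears on the blocked calls and counts there. Housekeeping centring, on 11 genes, moved the median of all genes by -0.16 to -0.19 in the comparisons with converted cells. Counts of called genes moved by over 1.5 times as follows. Partial minus full iPS cells had 3702 calls, and 2380 to 4402 with single arrays left out, the lowest without partial replicate 2. Partial minus J1 cells had 4571 and 8725 with array weights. Converted minus full iPS cells had 1029, 1956 with array weights, 2117 with the block, 493 against EOS3F-29 alone and 351 to 1166 with single arrays left out. Converted minus J1 cells had 342, 553 with housekeeping centring, 2815 with array weights, 173 with only these groups, 1087 with the block and 133 to 391 with single arrays left out. Full minus J1 cells had 949, 4831 with array weights, 520 with only these groups, 2074 with the block, 374 for EOS3F-29 alone and 303 to 1180 with single arrays left out. EOS3F-28 minus EOS3F-29 had 106, 177 with quantile normalization, 46 with only these groups, 380 with the block and 43 to 102 with single arrays left out. Why these counts moved was not tested, apart from the fewer arrays of some fits. Signal near background limits the low values, since RMA compresses them: MEF Pou5f1 and Sox2 and partial Sox2 lay near or under the array medians.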
